A study of Saccharomyces cerevisiae with 15 samples.

Results

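The large subunit of the yeast cytosolic ribosome is built on 46 proteins, and 81 genes encode them. Members were taken as rows of the deposited gene table whose standard name is RPL with a number and an optional A or B, together with the P-stalk genes RPP0, RPP1A, RPP1B, RPP2A and RPP2B. All 81 were found among the 7127 rows of the table, and all 81 passed the filter on low counts. They form 35 pairs of an A and a B copy and 11 single-copy genes, and 12 of the pairs encode the same protein from both copies. The R64 annotation gives 53 of the 81 an intron in the coding region, and 28 none.

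The libraries hold polyadenylated RNA of Saccharomyces cerevisiae strain W303. All 15 come from cells whose Zpr1 protein ends in an auxin-inducible degron (ZPR1-AID), a tag through which 5-Ph-IAA, an auxin derivative, sends the protein to the proteasome. The groups, of 3 libraries each, were untreated cells at 0 h, cells given 5-Ph-IAA for 0.5 h, 1.5 h and 3 h, and cells given DMSO for 3 h. An untagged strain was not analysed here, so compound and depletion cannot be told apart. DMSO was sampled at 3 h alone, so the earlier differences from untreated cells also hold solvent and time in culture. Zpr1 protein was not measured. Nothing in the labels ties the replicates to separate cultures, so p-values measure the spread between these libraries, which may be technical.

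Ribosomal protein genes are among the most transcribed of a growing yeast cell, and their transcription is known to be tied to growth through the factors Rap1, Fhl1, Ifh1 and Sfp1. Large-subunit proteins shape the peptidyl transferase centre, the exit tunnel and the P stalk. That stalk brings the translation factors to the ribosome, among them eEF1A, the protein that Zpr1 helps to fold. Most yeast ribosomal proteins come from a pair of genes left by an ancient genome duplication, so a cell can draw the same protein, or nearly the same, from either copy.

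Library totals ran from 2530145 to 21282576 counts, and library 2 of 5-Ph-IAA at 3 h was the shallowest. That library also had 4.62% of its counts in mitochondrially encoded genes, against 0.0165% and 0.787% in its replicates, and the part of this in the results was not tested. The number of lower genes at 3 h and the share of counts are also given without it.

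In untreated cells the member with the most reads was RPL41A, which was also the highest row of the whole table. RPL41A had 18760, 15970 and 18610 CPM (counts scaled to library size by the TMM method) in the 3 untreated libraries, and RPL41B had 7242, 6038 and 7376 CPM. Both encode the same very small basic protein, Rpl41, and their coding sequences of 78 bases, shown because they carry the highest level of the family, differ by 1 base. They are given in lower case with that base in capitals, from the R64 reference, whose sequence is that of strain S288C and not W303 (RPL41A at chrIV:130407-130484 and RPL41B at chrIV:221724-221801, both minus strand).
RPL41A: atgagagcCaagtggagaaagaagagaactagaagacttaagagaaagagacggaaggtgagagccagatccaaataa
RPL41B: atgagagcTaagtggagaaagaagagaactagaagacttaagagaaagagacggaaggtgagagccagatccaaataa
With so few bases between these copies, reads inside the coding region could hardly be assigned to one of them, and the share of each rests on sequence outside it or on how the authors' counting treated such reads. Of the 50 highest rows of the table in untreated cells, 18 were large-subunit genes.

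Levels per length spread widely below RPL41. Per kb of coding length, RPL41A and RPL41B had 227900 and 88270 CPM, values that a coding region this short inflates. RPL29, a small non-essential protein of the subunit, had 20630 CPM per kb, and RPL38, another small protein, 11510. At the other end RPL36B had 6.33, RPL39 13.4 and RPL33A 20.4 CPM per kb. RPL39 encodes a protein of the exit tunnel from a single gene, and it had 12, 25 and 15 counts in the untreated libraries.

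The low rows shared a feature of the table. For 16 of the 81 members the table also holds a row whose systematic name has the neighbouring number and the letter of the opposite strand, and which the R64 reference used here does not annotate. Of the 12 members with the lowest level per kb, 10 are such genes, the others being RPL15B at 58.9 and RPL22B at 670.5 CPM per kb. The median level was 384 CPM per kb for the 16, against 3558 for the other 65. Of RPL39 and its neighbouring row YJL188C, the neighbouring row held more reads, with 235, 287 and 471 counts in untreated libraries. RPL43A had 20, 29 and 42 counts and its neighbouring row YPR044C 24, 11 and 15, so the member had fewer in library 1 and more in libraries 2 and 3. RPL33A had 50, 58 and 56 counts and YPL142C 15, 13 and 18. RPL28 had 481, 422 and 528 counts and YGL102C 41, 61 and 20, and in both of these the member held more reads in every untreated library. Whether these rows overlap the members could not be settled from the reference, and whether the counting used strand is not given in the sources used here. The level of these 16 genes, and the share of a copy in their pairs, is therefore uncertain, and the part of the neighbouring rows in it was not tested.

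**Figure D1:**
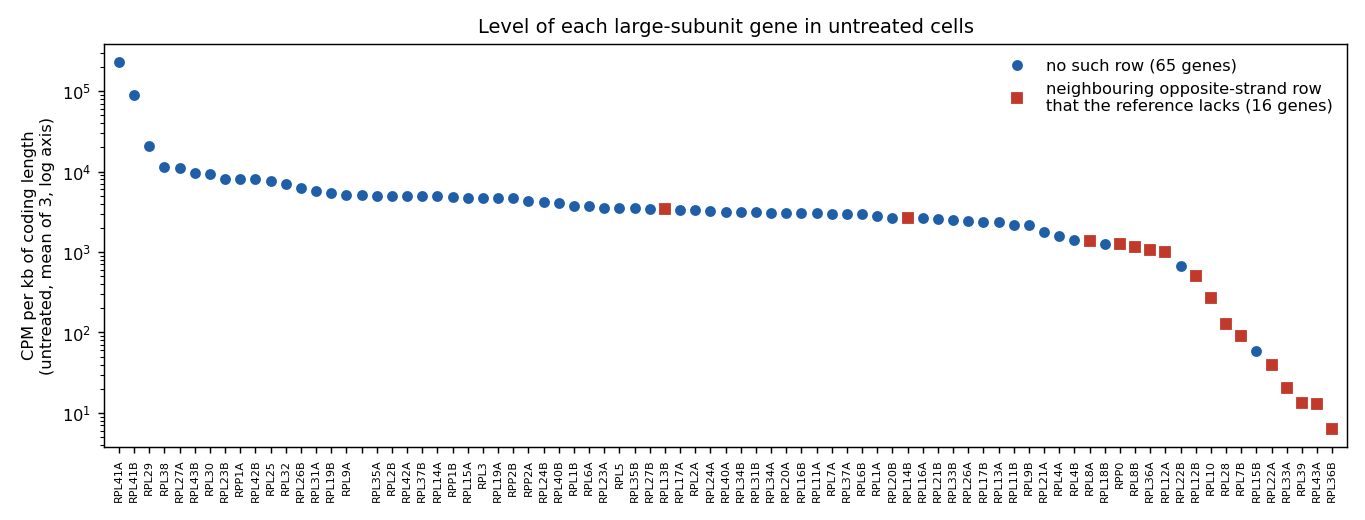
Level of each of the 81 genes in untreated cells, as CPM per kb of coding length (mean of 3 libraries, log axis), in descending order, with 1 gene left unnamed. Squares mark the 16 genes with a neighbouring opposite-strand row that the reference lacks, and 10 of the 12 lowest genes are squares.

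Over the time course the share of all counts held by the 81 genes became smaller. It was 14.5%, 14.7% and 15.4% in the untreated libraries, 15.1%, 14.2% and 14.1% at 0.5 h, 13.9%, 13.8% and 13.7% at 1.5 h and 11.2%, 10.6% and 11.8% at 3 h of 5-Ph-IAA. In DMSO at 3 h it was 13.2%, 12.2% and 12.3%. All 3 libraries at 3 h of 5-Ph-IAA lay below all 3 of DMSO, and both groups lay below untreated cells, while 0.5 h overlapped untreated. With TMM library sizes as the denominator the 3 h groups overlapped, at 10.8%, 10.4% and 10.99% for 5-Ph-IAA and 12.6%, 10.49% and 11.5% for DMSO. The group means were 14.9% ± 0.483 untreated, 14.5% ± 0.559 at 0.5 h, 13.8% ± 0.0764 at 1.5 h and 11.2% ± 0.609 at 3 h, with 12.6% ± 0.576 in DMSO (SD, n = 3 each). Without library 2 the mean at 3 h of 5-Ph-IAA was 11.5%. Between the 3 h groups the two-sided exact permutation p was 0.1, the smallest that 3 libraries against 3 allow. This test took the libraries as unpaired, although those of the 3 h groups are read as pairs below. The 56 small-subunit genes held 9.33% ± 0.474 of the counts after 3 h of 5-Ph-IAA, 10.3% ± 0.496 after DMSO and 12.2% ± 0.313 in untreated cells (SD, n = 3 each). In bulk RNA less of these messages per cell and more of all others cannot be told apart.

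**Figure D2:**
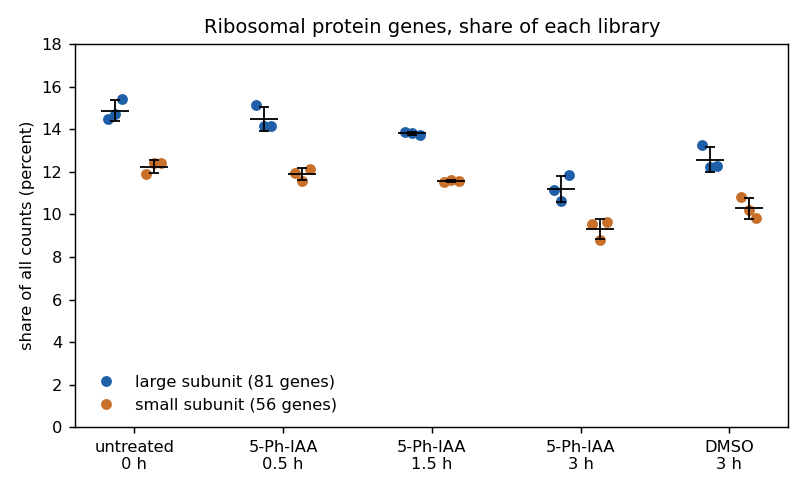
Share of all counts of a library (percent, axis from 0) held by the 81 large-subunit genes and by the 56 small-subunit genes. Points are libraries and bars the mean and SD of 3, and the large-subunit mean is 14.9% in untreated cells, 11.2% after 3 h of 5-Ph-IAA and 12.6% after DMSO.

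At 3 h of 5-Ph-IAA against untreated cells, 63 of the 81 genes were lower and none higher by edgeR's quasi-likelihood test (adjusted p under 0.05, Benjamini-Hochberg over the 6069 genes tested), where 19.7% of all tested genes were lower and 19.6% higher. The median log2 change was -0.56, against 0.01 over all genes tested. Intron-bearing members (42 of 53 lower, median -0.56) and those without an intron (21 of 28, median -0.56) had the same median, and A copies (26 of 35) and B copies (29 of 35) were lower in like numbers. In 23 pairs both copies were lower, in 9 pairs a single copy, and in 3 pairs neither. Of the 65 genes without a neighbouring opposite-strand row, 58 were lower, and of the 16 with one, 5. Without library 2 of 5-Ph-IAA 51 genes were lower, and on leaving out each of the 15 libraries in turn between 47 and 65. The count was 49 with scaling on total counts alone, which moves all log2 changes of this comparison by 0.14.

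The P stalk, which is made of P0 and of dimers of P1 and P2, held the largest fall of the 81 genes at 3 h, that of RPP0. RPP0 encodes P0, the base on which the stalk is anchored. It had 499.7, 740 and 606 CPM at 3 h of 5-Ph-IAA, against 931, 1106 and 1457 CPM in untreated cells. The groups did not overlap, and the log2 change was -0.92 (SE 0.20, adjusted p = 0.00147 by edgeR's quasi-likelihood test). RPP2B, encoding a P2 protein, had 692, 943 and 949 CPM at 3 h, against 1437, 1374 and 1868 CPM in untreated cells (-0.86 log2, SE 0.15, adjusted p = 0.000294). All 3 treated libraries of RPP2B were below all untreated ones. All 5 stalk genes were lower at 3 h of 5-Ph-IAA with a median of -0.75, where 19.7% of all tested genes were lower. RPP1A had -0.75, RPP2A -0.71 and RPP1B -0.55, and 4 or 5 were lower with any library left out. The RPP1B call (adjusted p = 0.0372) ended in 9 of 15 fits that left out a library, with adjusted p = 0.208 without untreated library 3, 0.102 without untreated library 2, 0.161 without 5-Ph-IAA library 1 and 0.0505 without 5-Ph-IAA library 2. It also ended with scaling on total counts (0.0956) and in a fit of the compared groups alone (0.0959). RPP0 is among the 16 genes with a neighbouring row, YLR339C, which was at 0 counts in all 15 libraries. In DMSO against untreated cells 4 of the 5 stalk genes were also lower (median -0.475), where 18.5% of all tested genes were. With a library left out 1 to 4 were lower there. RPP0 was at -0.61 there, with libraries that overlapped.

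The other large falls at 3 h were of proteins spread over the subunit. RPL33B had 387, 404 and 499 CPM at 3 h of 5-Ph-IAA, against 767, 898 and 736 CPM in untreated cells (-0.90 log2, SE 0.12, adjusted p = 3.32e-05). RPL14B had 609.8, 603 and 644 CPM at 3 h, against 1082, 1108 and 1107 CPM in untreated cells (-0.83, SE 0.12, adjusted p = 4.01e-05). RPL21B had 576, 688 and 813 CPM at 3 h, against 1039, 1339 and 1328 CPM in untreated cells (-0.83, SE 0.15, adjusted p = 0.000444). In each of these genes the 3 treated libraries were below the 3 untreated ones, and each call held under all 25 alternatives tried. RPL14B has a neighbouring opposite-strand row, YHL002C-A, with 6, 17 and 9 counts in untreated libraries.

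Of the 12 genes of the exit tunnel, the channel through which the new chain leaves, 11 were lower at 3 h (median -0.56). Of all tested genes 19.7% were lower. Without untreated library 3, 7 of the 12 were lower. RPL25, whose protein sits at the tunnel exit where chaperones and the signal recognition particle dock, had 2336, 2075 and 2509 CPM at 3 h, against 3111, 3606 and 3236 CPM in untreated cells (-0.52 log2, SE 0.12, adjusted p = 0.00231). RPL39 was the tunnel gene that was not lower, at 0.37 (adjusted p = 0.374) and at 2.91, 2.33 and 2.73 CPM, against 1.55, 2.95 and 1.74 CPM in untreated cells. Its groups overlapped, and it is a gene with a neighbouring opposite-strand row. In DMSO against untreated cells 7 of the 12 tunnel genes were also lower (median -0.42), where 18.5% of all tested genes were. With a library left out 5 to 8 were lower there.

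Around the peptidyl transferase centre, where peptide bonds form, the 4 genes had changes of -0.64 to -0.32 log2 at 3 h of 5-Ph-IAA. RPL3, whose protein reaches into that centre, had 4585, 4141 and 4512 CPM at 3 h, against 5126, 5554 and 5880 CPM in untreated cells (-0.32 log2, SE 0.10, adjusted p = 0.021). This call ended without untreated library 2 (adjusted p = 0.0763), untreated library 3 (0.127) or 5-Ph-IAA library 2 (0.136). It also ended with scaling on total counts (-0.18 log2, adjusted p = 0.129), with no filter on low counts (0.0514) and in a fit of the compared groups alone (0.109). RPL2A and RPL2B had -0.64 (adjusted p = 0.00138) and -0.56 (0.0147), and the RPL2B call ended without untreated library 2 (0.0582) or 3 (0.0609) or 5-Ph-IAA library 1 (0.0502) or 2 (0.0796). RPL10, which joins the subunit late, in the cytoplasm, had -0.62 (SE 0.26, adjusted p = 0.0691). It had 96.2, 101 and 151 CPM at 3 h, against 143, 189.6 and 206 CPM in untreated cells. These libraries overlapped, and RPL10 has a neighbouring opposite-strand row. In DMSO against untreated cells 3 of these 4 genes were also lower (median -0.51), where 18.5% of all tested genes were. With a library left out 1 to 4 were lower there. None of the 4 passed between the 3 h groups.

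The proteins that enter the subunit with the 5S rRNA are Rpl5 and Rpl11. RPL5 had 1760, 1860 and 2488 CPM at 3 h of 5-Ph-IAA, against 2888, 3463 and 3161 CPM in untreated cells (-0.64 log2, SE 0.18, adjusted p = 0.0103). Its call ended without untreated library 2 (adjusted p = 0.0528) or 5-Ph-IAA library 2 (0.053). RPL11A and RPL11B had -0.54 and -0.57 (adjusted p = 0.000678 and 0.000545). In DMSO against untreated cells 2 of these 3 genes were also lower (median of the 3 -0.49), where 18.5% of all tested genes were. RPL40A and RPL40B, whose protein is made as a fusion to ubiquitin, had -0.43 (adjusted p = 0.122) and -0.37 (0.00876) at 3 h of 5-Ph-IAA. The RPL40B call ended without untreated library 3 (0.0569), with scaling on total counts (-0.24 log2, 0.0852) and in a fit of the compared groups alone (0.0585). RPL30, which limits splicing of its own transcript, had 1666, 2169 and 2529 CPM at 3 h, against 2879, 2764 and 3316 CPM in untreated cells (-0.49, SE 0.16, adjusted p = 0.0198). The RPL30 call ended without untreated library 3 (adjusted p = 0.114), 5-Ph-IAA library 1 (0.0941) or 5-Ph-IAA library 2 (0.0562), with scaling on total counts (0.0928) and in a fit of the compared groups alone (0.0684).

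Of the 18 genes that were not lower at 3 h, 11 have a neighbouring opposite-strand row. Those without one were RPL9B (-0.23), RPL22B (0.09), RPL24B (-0.35), RPL27A (-0.33), RPL40A (-0.43), RPL41A (-0.51) and RPL41B (-0.30). RPL22B stood apart within this set, at 243, 285.5 and 264 CPM at 3 h, against 229.6, 273 and 239.7 CPM in untreated cells. The groups overlapped (adjusted p = 0.54), so no change of RPL22B was detectable with these libraries.

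DMSO for 3 h was also set against untreated cells. Here 48 genes were lower, where 18.5% of all tested genes were, and 1 was higher, where 17.6% of all tested genes were. The median was -0.44, against 0.01 over all genes tested. The count of lower genes was 27 without untreated library 3, and it was 19 when libraries were scaled on total counts alone, a scaling that moves all log2 changes of this comparison by 0.20. RPL29 had 2226, 1554 and 1982 CPM in DMSO, against 3379, 4007 and 3752 CPM in untreated cells (-0.95 log2, SE 0.19, adjusted p = 0.00122). RPL33B had 426, 376 and 443 CPM in DMSO and -0.95 (adjusted p = 3.03e-05). RPL20B was at -0.63 (adjusted p = 0.00204) and RPL38 at -0.65 (0.00646), in each case with no overlap of the libraries. RPL12B, of the base of the stalk, had -0.71 (adjusted p = 0.0303), and it has a neighbouring opposite-strand row. Its call ended without untreated library 3 (0.245) or DMSO library 3 (0.115). The call also ended with scaling on total counts (0.107) and in a fit of the compared groups alone (0.054).

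The single rise was that of RPL33A, with 10.8, 18.3 and 7.32 CPM in DMSO, against 6.47, 6.84 and 6.50 CPM in untreated cells (0.89 log2, SE 0.30, adjusted p = 0.0287). DMSO library 2 was far above the other DMSO libraries, and the call ended without it (adjusted p = 0.22). It also ended without untreated library 1 (0.0719), 2 (0.061) or 3 (0.0703).

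Both 3 h groups were set against the same untreated libraries, and a call in one of these comparisons and not in the other does not show that the groups differ. The test of that difference, 5-Ph-IAA at 3 h against DMSO at 3 h, called none of the 81 genes, where 2.87% of all tested genes were lower and 5.07% higher. At an unadjusted p under 0.05 there were 7 of the 81 (8.64%), below the 21.9% of all tested genes, and DESeq2 called 2 as lower. The median log2 difference was -0.12, against -0.02 over all genes, with 70 of 81 values below 0 (86.4%), where 53.2% of all tested genes were below 0.

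The smallest p in that comparison was that of RPP2B, with 692, 943 and 949 CPM under 5-Ph-IAA and 1368, 1081 and 1092 CPM in DMSO. The libraries did not overlap (-0.45 log2, SE 0.15, adjusted p = 0.0768). RPL19B had 1985, 1917 and 1789 CPM under 5-Ph-IAA, against 2698, 2395 and 2069 CPM in DMSO (-0.33, SE 0.12, adjusted p = 0.0978). RPL14B had -0.27 (SE 0.12, adjusted p = 0.184). The 5 stalk genes had differences of -0.45 to -0.15 with a median of -0.26, and none passed.

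**Figure D3:**
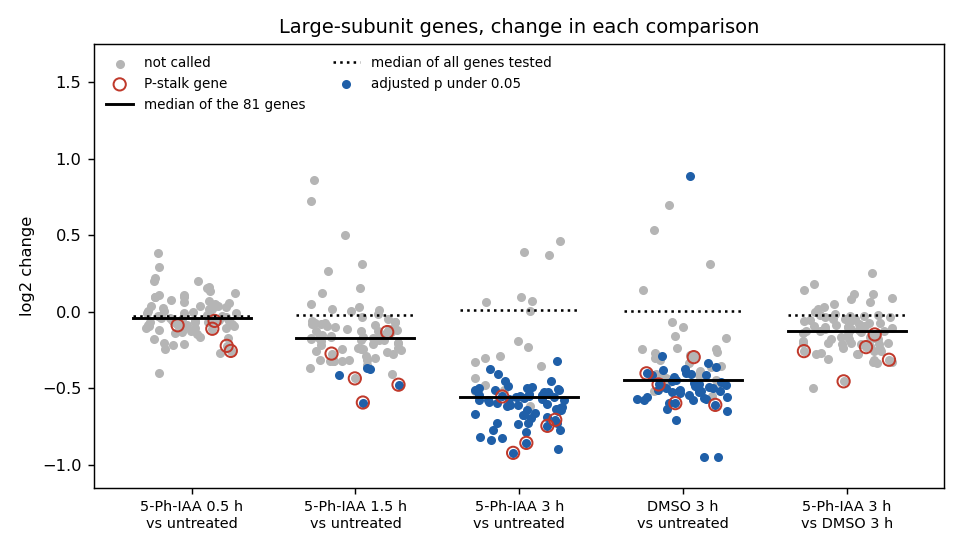
Log2 change of each of the 81 genes in the comparisons with untreated cells and between the 3 h groups. Filled blue points passed the test at an adjusted p under 0.05, open rings mark the 5 P-stalk genes, and lines give the median of the 81 genes (solid) and of all 6069 genes tested (dotted). The median of the 81 lies at -0.56 for 5-Ph-IAA at 3 h and -0.44 for DMSO against untreated cells, and at -0.12 between them.

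Earlier in the time course little passed. At 0.5 h of 5-Ph-IAA none of the 81 genes was called, where 2.78% of all tested genes were lower and 3.36% higher, and DESeq2 called none. An unadjusted p under 0.05 was found for 1 of the 81 (1.23%), below the 19.4% of all tested genes. The smallest p was that of RPL8A, at 1281, 1185 and 1415 CPM, against 997, 1158 and 1009 CPM in untreated cells (0.29 log2, SE 0.14, adjusted p = 0.253). RPL22B (0.20, adjusted p = 0.358) and RPL12B (-0.40, adjusted p = 0.395) followed. RPL8A and RPL12B each have a neighbouring opposite-strand row. The median over the 81 was -0.04, against -0.03 over all genes.

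At 1.5 h against untreated cells 5 genes were lower and none higher, where 9.74% of all tested genes were lower and 7.86% higher. The 5 were RPP0 (-0.59 log2, adjusted p = 0.0477), RPP1A (-0.48, 0.0174), RPL1A (-0.42, 0.0404), RPL14A (-0.37, 0.0457) and RPL14B (-0.37, 0.0381). RPP1A, encoding a P1 protein of the stalk, had 1862, 1889 and 1873 CPM at 1.5 h, against 2493, 2518 and 2815 CPM in untreated cells, with no overlap. These calls lay close to the threshold. Without untreated library 3, 1.5 h library 1 or 1.5 h library 2 none of the 81 passed. Without any library at 0.5 h or 1.5 h library 3, 1 passed, and without untreated library 1, untreated library 2 or 3 h library 2, 2 passed. With scaling on total counts or with no filter on low counts 1 passed. The median over the 81 was -0.17, against -0.02 over all genes.

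From 0.5 h to 1.5 h none was called, where 0.214% of all tested genes were lower and 0.923% higher, and DESeq2 called none. An unadjusted p under 0.05 was found for 6 of the 81 (7.41%), where 11.2% of all tested genes had one. RPP1A had -0.39 (adjusted p = 0.195) and RPL36B 0.97 (0.257). RPL36B rests on few counts, 23, 20 and 11 at 0.5 h and 22, 26 and 22 at 1.5 h. It also has a neighbouring opposite-strand row. The median over the 81 of -0.12 became 0.00 under scaling on total counts. From 1.5 h to 3 h 27 genes were lower, where 6.94% of all tested genes were, and none higher, where 8.9% were, with a median of -0.41. RPL33B had -0.63 (SE 0.12, adjusted p = 0.00331) and RPL26A, a tunnel protein gene, -0.56 (SE 0.12, adjusted p = 0.00554). RPL32 had -0.57 (adjusted p = 0.024), which ended without 1.5 h library 1 (0.0886) or 2 (0.0789) or 3 h library 1 (0.0723) or 2 (0.125) and in a fit of the compared groups alone (0.0506). RPL31B had -0.56 (adjusted p = 0.0166), which ended without 1.5 h library 1 (0.0965) or 3 h library 1 (0.0709) or 2 (0.0925) and in a fit of the compared groups alone (0.0796). RPL34B had -0.51 (0.0102), which ended without 1.5 h library 2 (0.0552). The 27 became 7, 8 and 11 without 1.5 h library 1, 2 or 3, and 13 and 5 without 3 h library 1 or 2. A test of any change over untreated cells and the 3 times called 57 of the 81, where 37.1% of all tested genes were called, and 36 without 3 h library 2.

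The copies of a pair were compared within libraries, where scaling cancels. Shares of the A copy, in percent of the counts of A and B together, ranged in untreated cells from 0.134% ± 0.0345 for RPL43 to 99.4% ± 0.211 for RPL36 (SD, n = 3). Both of these pairs hold a gene with a neighbouring opposite-strand row, as do 9 of the 35 pairs. Among the other 26 pairs the A copy held over 60% in 7, between 40% and 60% in 14, and under 40% in 5. RPL15 was at 98.8% ± 0.0821 A and RPL27 at 76.2% ± 1.48, while RPL26 was at 27.8% ± 2.75 and RPL23 at 30.4% ± 1.07. Counts of pairs as alike as RPL1 (coding identity 99.4%), RPL35 (99.2%), RPL4 (98.9%) and RPL42 (98.1%) depend on how reads that match both copies were treated, which is not given in the sources used here.

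In percentage points, a measure that leaves little room for pairs near 0% or 100%, the moves of the share were as follows. Between 3 h of 5-Ph-IAA and untreated cells the median move over the 35 pairs was 1.80 percentage points, and among the 26 pairs without a neighbouring row the largest was 4.18. RPL9, the pair with that move, had an A share of 66.3% ± 1.89 at 3 h, against 70.5% ± 1.18 in untreated cells. RPL9 did not pass edgeR's test of a difference between copies (A minus B -0.28 log2, adjusted p = 0.955). RPL8 had the largest move of all 35 pairs, at 63.5% ± 5.76 at 3 h, against 54.8% ± 4.88 in untreated cells (SD, n = 3 each). It was 62.3% in DMSO, RPL8A and RPL8B are both among the 16 genes, and RPL8 did not pass the test of a difference between copies (0.54 log2, adjusted p = 0.174). RPL33 and RPL43, whose A copies held few of the counts, moved by few points and by more in proportion. RPL22, whose A share was also small, was at 5.51% ± 1.15 at 3 h of 5-Ph-IAA. It was at 5.84% ± 0.164 in DMSO and 5.53% ± 0.784 in untreated cells (SD, n = 3 each). The A share of RPL33 was 2.09% ± 0.640 in the 5-Ph-IAA libraries at 3 h and 2.91% ± 1.55 in the DMSO libraries, against 0.823% ± 0.0611 in untreated cells (SD, n = 3 each). That of RPL43 was 0.319% ± 0.175 in the 5-Ph-IAA libraries at 3 h and 0.316% ± 0.112 in the DMSO libraries, against 0.134% ± 0.0345 in untreated cells (SD, n = 3 each).

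**Figure D4:**
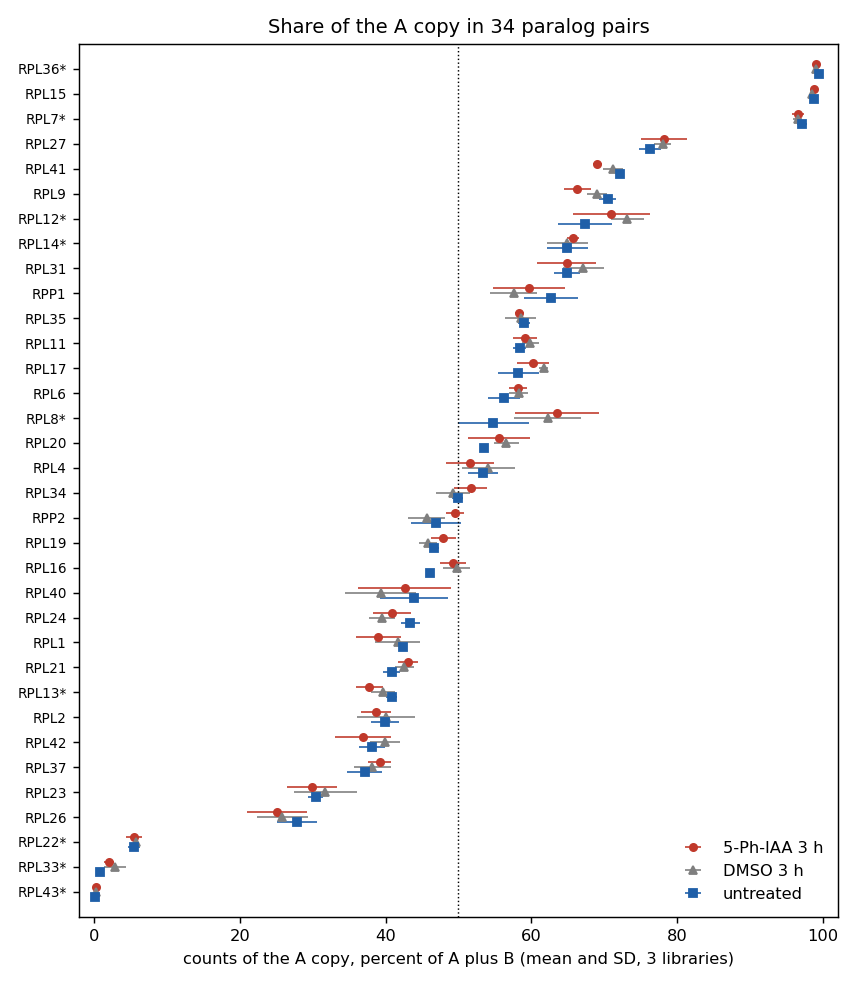
Counts of the A copy as percent of A plus B in 34 of the 35 pairs (mean and SD of 3 libraries), at 3 h of 5-Ph-IAA, in DMSO at 3 h and in untreated cells. Asterisks mark the 9 pairs with a neighbouring opposite-strand row, and the largest move in percentage points is that of RPL8, at 63.5% at 3 h of 5-Ph-IAA, against 54.8% in untreated cells. Proportional moves of pairs near 0%, such as RPL33 and RPL43, cannot be read from this axis.

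Whether both copies changed alike was tested with edgeR's test for differential usage within a pair. Adjustment was over 61 pairs whose symbols differ in a final A or B. These are 35 large-subunit pairs, 24 small-subunit pairs and 2 others, COX5 and NHP6. A share of the 61 therefore includes the large-subunit pairs themselves and is not a share over the genome. At 3 h of 5-Ph-IAA against untreated cells 2 of the 35 large-subunit pairs passed, where 6.56% of the 61 did, and the copies of 25 pairs differed by less than 0.2 log2. The pairs were RPL33 (A minus B 1.28 log2, adjusted p = 0.000658) and RPL43 (1.1, adjusted p = 0.0133). The same pairs passed for DMSO against untreated cells, RPL33 at 1.83 (adjusted p = 9.20e-07) and RPL43 at 1.21 (0.00223), where 4.92% of the 61 passed. RPL43 alone passed at 1.5 h (1.04, adjusted p = 0.0238), where 3.28% did. In these comparisons the count of large-subunit pairs that passed lay near the share of the 61. No large-subunit pair passed at 0.5 h (3.28% of the 61), between the 3 h groups (0%), from 0.5 h to 1.5 h (0%) or from 1.5 h to 3 h (1.64%), with 1, 1, 3 and 1 pairs at an unadjusted p under 0.05, where 3, 3, 4 and 2 of the 61 had one.

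In both pairs the B copy, which held most of the counts, was lower and the A copy, which held few, was not. RPL33B had 2470 CPM per kb in untreated cells and RPL33A 20.4. RPL43B had 1756, 1643 and 1762 CPM at 3 h of 5-Ph-IAA, against 2490, 2718 and 2839 CPM in untreated cells (-0.64 log2, SE 0.11, adjusted p = 0.000215). RPL43A had 3.22, 8.52 and 4.58 CPM at 3 h, against 2.59, 3.42 and 4.88 CPM in untreated cells, and these libraries overlapped (0.46, SE 0.38, adjusted p = 0.371). RPL33A had 9.04, 10.8 and 6.98 CPM at 3 h, against 6.47, 6.84 and 6.50 CPM in untreated cells (0.39, SE 0.31, adjusted p = 0.362). RPL33A and RPL43A rest on few counts, 28 and 22 in the shallowest library, and both have a neighbouring opposite-strand row.

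The RPL43 calls depended on single libraries. Without library 2 of the treated group the adjusted p was 0.801 at 1.5 h, 0.286 at 3 h and 0.0932 for DMSO, and the calls at 1.5 h and 3 h also ended without untreated library 1 (0.126 and 0.0726) or 2 (0.106 and 0.0835). With limma on the log2 ratio of the copies, an alternative added after the data were seen that allows copies to vary together, no RPL43 call passed (adjusted p = 0.154 at 1.5 h, 0.114 at 3 h and 0.116 for DMSO). RPL33 passed there for 5-Ph-IAA at 3 h (0.027) and for DMSO (0.00417).

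The coding sequences of these pairs are shown because reads can be assigned to a copy wherever they differ. RPL33A (chrXVI:282122-282970, plus strand) and RPL33B (chrXV:778555-779405, minus strand) differ at 29 of 324 coding bases and RPL43A (chrXVI:654166-654847, plus strand) and RPL43B (chrX:608305-608858, plus strand) at 29 of 279. Spans are those of the R64 genes with their intron. Capitals mark the bases that differ, over the first 300 coding bases of RPL33 and all of RPL43, 5' to 3'.
RPL33A: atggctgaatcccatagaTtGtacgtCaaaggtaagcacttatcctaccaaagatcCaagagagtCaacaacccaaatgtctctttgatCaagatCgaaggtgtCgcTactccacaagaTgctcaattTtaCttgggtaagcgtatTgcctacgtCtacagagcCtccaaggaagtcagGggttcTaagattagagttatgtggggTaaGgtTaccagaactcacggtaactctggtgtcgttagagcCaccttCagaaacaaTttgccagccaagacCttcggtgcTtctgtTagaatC
RPL33B: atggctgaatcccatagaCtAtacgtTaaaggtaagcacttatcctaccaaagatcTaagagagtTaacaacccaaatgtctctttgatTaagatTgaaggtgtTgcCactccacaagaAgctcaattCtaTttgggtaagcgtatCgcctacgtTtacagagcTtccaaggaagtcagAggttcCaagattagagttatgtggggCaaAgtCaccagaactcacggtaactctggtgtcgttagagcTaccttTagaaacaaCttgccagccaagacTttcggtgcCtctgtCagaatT
RPL43A: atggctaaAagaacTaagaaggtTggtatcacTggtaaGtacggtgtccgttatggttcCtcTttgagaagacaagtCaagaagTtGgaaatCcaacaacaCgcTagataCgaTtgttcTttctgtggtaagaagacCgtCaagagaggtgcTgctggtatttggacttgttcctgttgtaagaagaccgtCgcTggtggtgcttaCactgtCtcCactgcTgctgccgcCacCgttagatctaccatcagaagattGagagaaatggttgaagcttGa
RPL43B: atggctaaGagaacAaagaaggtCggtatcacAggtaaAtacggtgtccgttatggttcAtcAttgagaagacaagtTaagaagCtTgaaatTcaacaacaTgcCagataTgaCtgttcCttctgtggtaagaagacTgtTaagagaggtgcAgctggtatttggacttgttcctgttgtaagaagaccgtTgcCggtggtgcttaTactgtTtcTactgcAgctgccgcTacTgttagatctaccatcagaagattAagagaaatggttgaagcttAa
No run of 50 bases in the coding sequence of RPL33A or RPL43A recurs in its partner, so reads of that length or more inside the coding region would tell the copies apart.

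**Figure D5:**
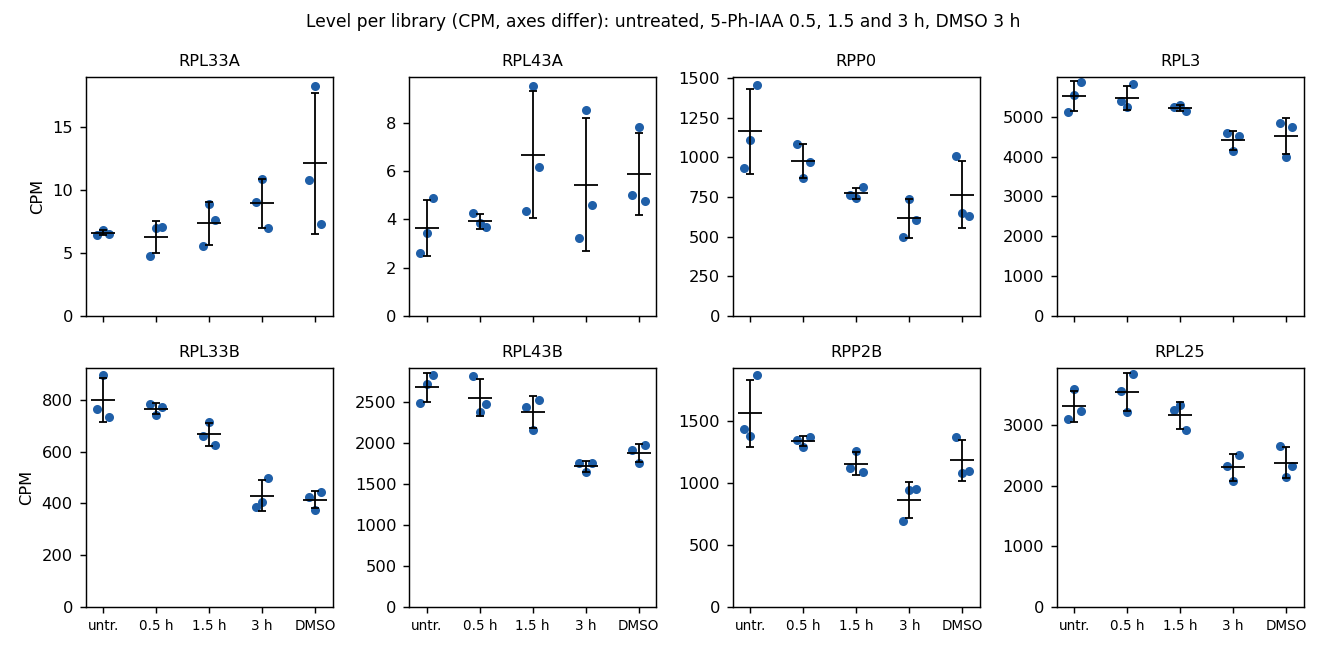
CPM in each library (points, with mean and SD of 3) of RPL33A, RPL33B, RPL43A, RPL43B, RPP0, RPP2B, RPL3 and RPL25, in untreated cells, under 5-Ph-IAA for 0.5 h, 1.5 h and 3 h, and after DMSO for 3 h. Axes start at 0 and differ between genes, and RPL33B has 387 to 499 CPM at 3 h of 5-Ph-IAA while RPL33A stays under 20 CPM in every library.

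Upstream sequence was read because Rap1 is the best known activator of these genes. The core of its site, ACCCNNACA, searched on both strands with overlaps counted once in the 500 bases before the start codon, was found at 36 of the 81 genes (44.4%), at 18 of 56 small-subunit genes (32.1%) and at 329 of 6021 protein-coding genes (5.5%). AAAATTTT, the core of an element common before ribosome assembly genes, was found at 13 of the 81, against 12.4% of all genes. At 3 h of 5-Ph-IAA against untreated cells the median log2 change was -0.57 in the 36 genes with the Rap1 core and -0.55 in the 45 without these letters in the window. Stretches of 120 bases are shown for RPL33B (chrXV:779786-779905, minus strand), RPL26A (chrXII:818986-819105, plus strand), RPL34B (chrIX:257444-257563, minus strand) and RPL25 (chrXV:79894-80013, plus strand), genes named above that hold the core, with the core in capitals on either strand.
RPL33B: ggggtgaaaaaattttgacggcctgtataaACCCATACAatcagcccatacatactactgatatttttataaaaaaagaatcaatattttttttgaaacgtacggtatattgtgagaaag
RPL26A: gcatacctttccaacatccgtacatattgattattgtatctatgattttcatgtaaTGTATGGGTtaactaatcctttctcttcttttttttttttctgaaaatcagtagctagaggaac
RPL34B: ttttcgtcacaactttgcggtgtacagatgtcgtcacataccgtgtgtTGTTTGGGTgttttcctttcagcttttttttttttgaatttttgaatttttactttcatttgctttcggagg
RPL25: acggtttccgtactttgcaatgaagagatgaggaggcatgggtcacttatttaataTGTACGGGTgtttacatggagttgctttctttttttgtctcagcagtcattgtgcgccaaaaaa
These letters are a description of the reference sequence, and binding was not measured.

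Genes that serve the large-subunit proteins were read from lists. Against untreated cells 19.7% of all tested genes were lower and 19.6% higher at 3 h of 5-Ph-IAA, and 18.5% and 17.6% in DMSO. Between the 3 h groups 2.87% were lower and 5.07% higher, and 21.9% had an unadjusted p under 0.05 by edgeR's quasi-likelihood test. Dedicated chaperones hold single ribosomal proteins until assembly, such as Rrb1 for Rpl3, Acl4 for Rpl4, Syo1 for Rpl5 and Rpl11 and Sqt1 for Rpl10. All 7 on the list were lower at 3 h of 5-Ph-IAA (median -1.05) and all 7 in DMSO (median -1.01) against untreated cells, and none passed between the 3 h groups, in which 0 had an unadjusted p under 0.05. ACL4 had -1.27 under 5-Ph-IAA and -1.01 in DMSO, and RRB1 -1.05 and -0.95. The 3 assembly factors related to large-subunit proteins, MRT4 (a relative of P0), RLP7 and RLP24, had -1.23, -1.17 and -1.18 under 5-Ph-IAA and -1.02, -0.92 and -0.89 in DMSO, all lower. Of 11 regulators 1 was lower and 1 higher at 3 h of 5-Ph-IAA. SCH9, a kinase that promotes ribosomal protein transcription, had -0.75 (adjusted p = 0.000217) and STB3, a repressor, 0.53 (0.00342). RAP1 (-0.30, 0.0665), FHL1 (-0.35, 0.0543), IFH1 (-0.51, 0.122) and SFP1 (-0.09, 0.605) did not pass. In DMSO 3 of the 11 were lower and 1 higher, among them SCH9 (-0.92, adjusted p = 4.68e-05), RAP1 (-0.38, 0.0216) and STB3 (0.80, 0.000136). None of the 11 passed between the 3 h groups, where 2 had an unadjusted p under 0.05. These counts of regulators lay near the shares over all tested genes. The 56 small-subunit genes had a median of -0.56, with 48 lower, at 3 h of 5-Ph-IAA and of -0.48, with 42 lower, in DMSO.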

How the data were processed

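The deposited table holds raw counts of reads per gene, 1 column per library. Per the submitters' processing notes the authors used FastQC 0.11.5, STAR 2.7.0, DESeq2 1.34.0 and genome build R64. No source used here names the counting tool, its use of strand or its handling of reads with several matches. Names, introns and sequence came from the R64 RefSeq reference, to which 6047 rows matched by locus tag and 44 by symbol, while 1036 did not match.

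Libraries were scaled with TMM and tested in edgeR 4.0.16 (R 4.3.3) by a two-sided quasi-likelihood test after its default filter. All 15 libraries entered 1 fit with a mean for each group, and p-values were adjusted by Benjamini-Hochberg over the 6069 genes tested in each comparison. CPM used TMM library sizes. Paralogs were compared with diffSpliceDGE on that fit, which treats the copies as varying independently, over 61 pairs whose symbols differ in a final A or B. Alternatives were DESeq2 1.42.0, RLE and total-count scaling, other filters, replicate blocks, the compared groups alone, copies summed, limma 3.58.1 on log2 ratios, and each library left out. The scripts were tested on simulated counts. Figures used Python 3.11.15 and matplotlib 3.10.9.

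The members, the lists and the rule for naming genes were chosen with earlier results of these data known. The rule named 6 single-copy genes, the 5 largest changes past the test without overlap, or the 3 smallest p where none passed, and 1 gene that it named is not reported here. To see whether replicate numbers mark pairs, deviations from group means were correlated, which gave 0.196, 0.302 and 0.586 between the 3 h groups. Those libraries were read as pairs on that basis alone, since the labels state no pairing, and those of other comparisons were not. The main fit and the permutation test did not use these pairs, and a fit with replicate blocks was an alternative.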

Additional observations from a re-analysis of the deposited data

How the results depend on the processing

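Of the 42 main results, 25 were unchanged under every alternative. A count was unchanged if it was equal, or above 0 in both fits and within 1.5 times. A share was unchanged if its mean moved by less than the SD of its group. The A shares of RPL33, RPL43 and RPL36, each counted in all 5 groups, could not move by that rule. They are among the 42 and among the 25, so the 25 include results that were fixed in advance. Leaving out a library cannot shift a mean of 3 by its SD, and the copies of these pairs are equal in coding length. For 5-Ph-IAA against DMSO at 3 h, 2 genes were lower with DESeq2 and 2 with total counts, and 0 to 1 on leaving out a library. The replicate block, used because those libraries were read as pairs, left that count at 0. At 0.5 h the block on the compared groups called 1 higher gene. At 1.5 h the 5 lower genes became 8 (DESeq2), 3 (RLE), 1 (total counts), 1 (no filter), 3 (at least 10 CPM), 3 (replicate block), 1 (copies summed), 9 (compared groups alone), 3 (no genes with a neighbouring row) and 0 to 7 on leaving out a library. The pair count there was 0 at 10 CPM, with the block or with limma, and 3 with the compared groups alone, and 0 to 1 on leaving out a library. At 3 h against untreated, 37 proteins were lower with copies summed, 47 to 65 genes on leaving out a library, and the pair count was 0 at 10 CPM, where RPL33A and RPL43A fall under the filter, 1 with limma and 1 to 2 on leaving out a library. For DMSO against untreated, 19 were lower with total counts, 29 with copies summed, 11 with the replicate block on the compared groups and 27 to 54 on leaving out a library. The single higher gene was 0 at 10 CPM, with copies summed, with the block or without genes with a neighbouring row, and 0 to 2 on leaving out a library, and pairs were 0 at 10 CPM, 1 with limma and 1 to 2 on leaving out a library. From 0.5 h to 1.5 h, 1 gene was lower and 2 pairs passed with the compared groups alone, and 0 to 1 pairs on leaving out a library. From 1.5 h to 3 h, 45 were lower with DESeq2, 14 with total counts, 17 with copies summed, 6 with the compared groups alone, 0 with the replicate block (adjusted p = 0.103 for RPL33B and 0.13 for RPL26A) and 5 to 40 on leaving out a library, and 1 pair passed with the replicate block, 1 with the compared groups alone and 0 to 1 on leaving out a library. Any change was called for 37 with total counts, 34 with copies summed and 36 to 58 on leaving out a library. With TMM library sizes the share of counts was 15.65% untreated, 15.7% at 0.5 h and 11.5% in DMSO, with 10.7% at 3 h of 5-Ph-IAA. The causes were not tested. Of 34 named results 12 kept their call in every alternative, and none reversed. Depth limits the genes with few counts, with 6 to 7 counts of RPL36B and RPL39 in the shallowest library.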
